A study of Homo sapiens with 15 samples.

Results

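The genes described here lie side by side on band q25 of the long arm of human chromosome 6, running in gene order from PPP1R14C to WTAP. They were chosen by their measured log2 expression: many of them lay lower in 1 resistant clone, C#3, than in the parental line, so their values in C#3 against the parental line are given as a description, with no p-value of their own, and support nothing. Of the 37 listed genes, 27 had a probe set with a gene symbol, and 21 of those passed the filter on dim probe sets, out of 12147 genes tested in all. The 10 without one (PPP1R14C, PLEKHG1, ARMT1, SYNE1, OPRM1, CNKSR3, TFB1M, GTF2H5, DYNLT1 and SOD2) were not analysed here. A further 6, MYCT1, VIP, IPCEF1, CLDN20, NOX3 and FNDC1, did not pass the filter, with single values between 2.54 and 3.68 on the log2 scale. The other 21 are called the tested members below. They passed a filter that does not look at the groups, but a dim gene could still have passed through the groups in which it was brightest.

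All cells derive from the line BT474, human breast cancer cells in which the HER2 gene is amplified. The resistant groups are the clones C#3, C#1, C#2 and C#6, each grown from 1 cell after long exposure to trastuzumab emtansine (T-DM1) and then kept in 5 nM T-DM1 for 3 months. T-DM1 couples a HER2 antibody to a drug that blocks microtubules. The comparison group is parental BT474 without that selection. Each of the 5 groups had 3 arrays, 15 in all. The labels call the 3 arrays biological replicates, but nothing says that they came from separate cultures, so p-values measure the spread between these samples, which may be technical. Each clone is 1 clone of 1 line, and resistance, single-cell cloning and long culture cannot be told apart. The labels do not say if T-DM1 was still in the medium at harvest.

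The stretch has no single function. It holds regulators in the nucleus (ARID1B, a DNA-binding subunit of the SWI/SNF chromatin remodellers; WTAP, which holds together the enzyme complex that writes the m6A mark on messenger RNA; SCAF8, which binds the tail of RNA polymerase II; and ZBTB2, a zinc-finger transcription factor). It also holds genes of mitochondria (RMND1 and MTRF1L, both needed for protein synthesis there, MTHFD1L, a folate enzyme, and SERAC1, which remodels the lipid phosphatidylglycerol). Another set acts on the cell cortex and on membrane traffic (EZR, SNX9, SYNJ2, SYTL3, TIAM2, AKAP12). Genes that neighbour each other on a chromosome can share a change in RNA level without sharing a role. The DNA of these clones was not analysed here.

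Promoters of 4 members are shown. SERAC1 and WTAP were taken because each lies head to head with another member, on opposite strands with starts under 1000 bases apart. RMND1 and ZBTB2 were added after their values were seen. RMND1 lay furthest below the other clones in C#3, and ZBTB2 fell furthest in the other 3 clones. Each sequence runs from 250 bases before to 50 bases after the start given by RefSeq, 5′ to 3′ on the gene's strand, build GRCh38.p14. Capitals mark 3 motifs searched on both strands, CCAAT (the CCAAT box), GGGCGG (a GC box) and CCGGAAG (an ETS-type motif).
RMND1: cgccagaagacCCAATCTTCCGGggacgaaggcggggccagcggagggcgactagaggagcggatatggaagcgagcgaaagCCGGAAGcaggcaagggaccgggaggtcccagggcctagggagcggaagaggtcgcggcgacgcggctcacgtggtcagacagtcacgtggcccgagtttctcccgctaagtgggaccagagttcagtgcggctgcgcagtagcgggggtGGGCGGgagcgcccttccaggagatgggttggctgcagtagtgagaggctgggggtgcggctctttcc
SERAC1: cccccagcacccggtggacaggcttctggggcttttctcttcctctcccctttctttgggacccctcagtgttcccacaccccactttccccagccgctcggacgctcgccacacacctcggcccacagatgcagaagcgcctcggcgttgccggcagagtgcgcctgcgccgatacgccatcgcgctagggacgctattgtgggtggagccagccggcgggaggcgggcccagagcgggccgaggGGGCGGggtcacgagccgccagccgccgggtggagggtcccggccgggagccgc
WTAP: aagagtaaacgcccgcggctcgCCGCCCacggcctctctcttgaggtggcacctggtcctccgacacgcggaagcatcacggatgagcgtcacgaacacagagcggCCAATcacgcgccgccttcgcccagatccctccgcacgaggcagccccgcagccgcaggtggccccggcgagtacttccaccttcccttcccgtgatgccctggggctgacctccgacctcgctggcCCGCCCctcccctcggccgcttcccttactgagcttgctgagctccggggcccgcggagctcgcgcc
ZBTB2: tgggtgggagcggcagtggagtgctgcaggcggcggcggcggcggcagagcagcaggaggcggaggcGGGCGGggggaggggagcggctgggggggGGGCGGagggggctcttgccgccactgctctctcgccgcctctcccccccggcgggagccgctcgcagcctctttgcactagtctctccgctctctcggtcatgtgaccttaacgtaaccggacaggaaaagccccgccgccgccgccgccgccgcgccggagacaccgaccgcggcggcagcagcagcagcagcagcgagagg
They lie at chr6:151452077-151452376 (RMND1, minus strand), chr6:158168213-158168512 (SERAC1, minus strand), chr6:159726867-159727166 (WTAP, plus strand) and chr6:151391510-151391809 (ZBTB2, minus strand). The RMND1 window held 1 CCAAT box, 1 GC box and 2 ETS-type motifs, the first of which adjoins the CCAAT box. The SERAC1 window held 1 GC box and neither of the others. The WTAP window held 1 CCAAT box and 2 GC boxes, and the ZBTB2 window held 2 GC boxes. Among the 35116 promoters of the RefSeq table, 34.6% held the CCAAT box, 45.0% the GC box and 10.3% the ETS-type motif. The 4 windows had 27, 30, 34 and 36 CG dinucleotides in the order printed, against a median of 14 and an upper quartile of 28 over all promoters. A match is a string of letters and not a shown binding site, and 34 of the 37 members had a promoter in the table.

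The deposited values are log2 expression levels of probe sets. Array medians lay between 4.03 and 4.10, and the 75th percentile lay between 5.80 and 5.89 in the clones and between 5.94 and 5.96 in the parental line. Of the 10 luminal breast epithelium markers listed, 8 were tested, with ERBB2 and CDH1 not analysed here. Their summed log2 level was 74.4 to 74.5 in C#3, 71.1 to 72.4 in C#1, 72.6 to 73.6 in C#2 and 73.6 to 74.1 in C#6, against 75.5 to 75.6 in the parental line. At the threshold given below, 3 of the 8 were called lower and 2 higher in C#1, and 2 and 2 in C#2. In C#3 the counts were 3 and 1, and in C#6 4 and 2. The shares of all genes are given below. GATA3 changed by −2.89 in C#1, −3.14 in C#2, −0.76 in C#3 and −2.36 in C#6. TFF1 rose by 0.70, 1.16, 0.58 and 1.51 in the same order. The calls of EPCAM in C#2, ESR1 in C#3 and KRT8 in C#6 ended without any 1 parental array. Among the markers of other cell types, 2 basal, 4 fibroblast, 1 endothelial and 3 leukocyte genes had no probe set with a symbol. Counting those, 1 of 5 basal, 0 of 6 fibroblast, 1 of 4 endothelial and 2 of 5 leukocyte genes passed the filter. Their mean levels stayed at or below 4.21, and those of the fibroblast genes DCN and LUM at 2.74 and 2.83. The part of the luminal marker levels in the results below was not tested. In RNA from whole cultures, fewer cells that express a gene and less RNA per cell cannot be told apart.

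In C#3, the clone for which the genes were listed, 16 of the 21 tested members had a mean below that of the parental line. Their median difference was −0.49 on the log2 scale, with a range of −1.07 to 0.29, and the median of all 12147 genes was −0.00. At an adjusted p under 0.05 (limma, Benjamini-Hochberg over all genes), 13 of the 21 were called lower and 0 higher, where 11.0% of all genes were called lower and 6.22% higher. Nothing is read from that count, because the same contrast chose the genes. The 5 with a mean above the parental one were CCDC170, EZR, RGS17, TAGAP and SYTL3, so a falling stretch describes most but not all of the members. Array by array, the median deviation of the members from the parental means was −0.41, −0.35 and −0.52 in the 3 arrays of C#3. It was 0.01, −0.00 and 0.04 in C#1, 0.08, 0.02 and 0.03 in C#2 and 0.04, −0.01 and 0.06 in C#6, against −0.01, 0.03 and −0.02 in the parental line. The median was thus low in each of the 3 arrays of C#3 and near 0 in all others.

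**Figure D1:**
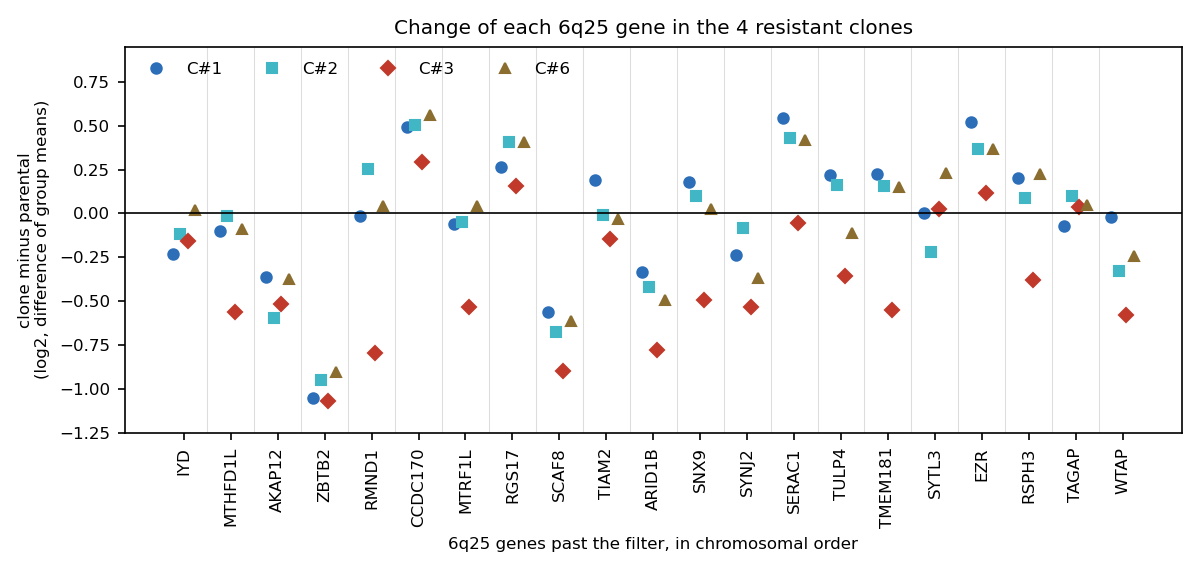
Difference of group means, clone minus parental (log2), for each of the 21 tested members in chromosomal order, with 1 symbol per clone. C#3 lies apart from the other 3 clones at RMND1, MTHFD1L, MTRF1L, SNX9, TMEM181 and RSPH3. All 4 clones lie below 0 at ZBTB2, SCAF8, AKAP12 and ARID1B, and also, some of them close to 0, at SYNJ2, WTAP and MTHFD1L.

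The other clones were tested, with the caution that their comparisons share the parental arrays with the contrast that chose the genes. In C#2 over C#1, 0 of the 12147 genes were called lower and 0 higher. Agreement between C#1 and C#2 may therefore not be that of independent clones. In C#1, 3 of the 21 members fell and 3 rose, where 11.2% of all genes fell and 6.03% rose. In C#2, 5 fell and 4 rose, against 11.5% and 5.47% of all genes. In C#6, 5 fell and 4 rose, against 14.7% and 7.73% of all genes. The median member change was −0.01 in C#1, −0.01 in C#2 and 0.02 in C#6, and the medians of all genes were −0.02, −0.02 and −0.02. The members of these clones therefore moved in both directions with a median near 0. The counts in C#2 and C#6 dropped to 5 when 1 array was left out (parental replicate 2 or 3, or C#2 replicate 1 or 2, for C#2, and parental replicate 2 or C#6 replicate 1 for C#6).

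Of the nuclear genes, ZBTB2 had the lowest difference of any member in C#3 against the parental line, and was low in every clone. Its log2 values were 8.12, 8.08 and 8.13 in C#3, 7.47, 8.47 and 8.46 in C#1, 7.82, 8.33 and 8.55 in C#2 and 8.18, 8.23 and 8.42 in C#6. The parental arrays read 9.09, 9.26 and 9.19. All 12 clone arrays lay below all 3 parental ones. ZBTB2 fell by 1.05 ± 0.22 (log2, SE) in C#1 (2.07-fold lower, adjusted p = 0.00303, limma), by 0.95 in C#2 (1.93-fold, adjusted p = 0.00597) and by 0.91 in C#6 (1.87-fold, adjusted p = 0.00602), with 3 arrays per group. The difference in C#3 was −1.07.

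SCAF8 followed the same course. It read 4.80, 5.09 and 4.63 in C#3, 4.99, 5.10 and 5.44 in C#1, 5.16, 5.00 and 5.03 in C#2 and 5.02, 5.13 and 5.22 in C#6, against 5.69, 5.70 and 5.82 in the parental line. No clone array reached the parental range. The fall was 1.48-fold in C#1 (log2 change −0.56 ± 0.13 SE, adjusted p = 0.00648, limma), 1.60-fold in C#2 (−0.68, adjusted p = 0.00187) and 1.53-fold in C#6 (−0.62, adjusted p = 0.00258). In C#3 the difference was −0.90. The calls of ZBTB2 and SCAF8 in C#1, C#2 and C#6 held with each single array left out.

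ARID1B read 6.96, 7.10 and 7.22 in C#3, 7.50, 7.53 and 7.58 in C#1, 7.23, 7.46 and 7.67 in C#2 and 7.29, 7.38 and 7.46 in C#6, against 7.74, 7.90 and 7.97 in the parental line. The 3 arrays of C#3 lay below the other 12, and all clone arrays lay below the parental ones. ARID1B fell in C#6 (−0.50 ± 0.11 SE, adjusted p = 0.00508, limma) and in C#2 (−0.42, adjusted p = 0.0185). In C#1 the change was −0.34 and did not pass (adjusted p = 0.0555), and in C#3 the difference was −0.78. The call in C#2 ended without parental replicate 2 or 3 or C#2 replicate 1, with repeated quantile normalization and in a fit to the 6 arrays of the comparison alone (highest adjusted p = 0.0892, limma).

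WTAP had a narrow range in C#3, at 8.13, 8.08 and 8.07, below the other 12 arrays. It read 8.53, 8.66 and 8.77 in C#1, 8.25, 8.53 and 8.25 in C#2 and 8.37, 8.38 and 8.55 in C#6, against 8.55, 8.74 and 8.74 in the parental line. The difference was −0.58 in C#3. The fall in C#2 (−0.33 ± 0.11 SE, adjusted p = 0.0424, limma) was its only call in C#1, C#2 and C#6, and leaving out any of 9 single arrays ended it (parental replicate 2 or 3, C#1 replicate 2, C#2 replicate 1 or 3, any of the 3 arrays of C#3, or C#6 replicate 2). Repeated quantile normalization and a fit to the 6 arrays alone ended it too (highest adjusted p = 0.145, limma). The changes in C#1 (−0.02) and C#6 (−0.24) did not pass.

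TULP4, a tubby-like protein, read 7.85, 8.07 and 7.82 in C#3, 8.40, 8.54 and 8.53 in C#1, 8.43, 8.32 and 8.54 in C#2 and 7.97, 8.26 and 8.26 in C#6, against 8.30, 8.26 and 8.25 in the parental line. The highest array of C#3 lay above the lowest of C#6. The difference was −0.36 in C#3, and the changes of 0.22 in C#1, 0.16 in C#2 and −0.11 in C#6 did not pass (lowest adjusted p = 0.181, limma). The 5 nuclear members had a median difference of −0.78 in C#3, −0.34 in C#1, −0.42 in C#2 and −0.50 in C#6.

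**Figure D2:**
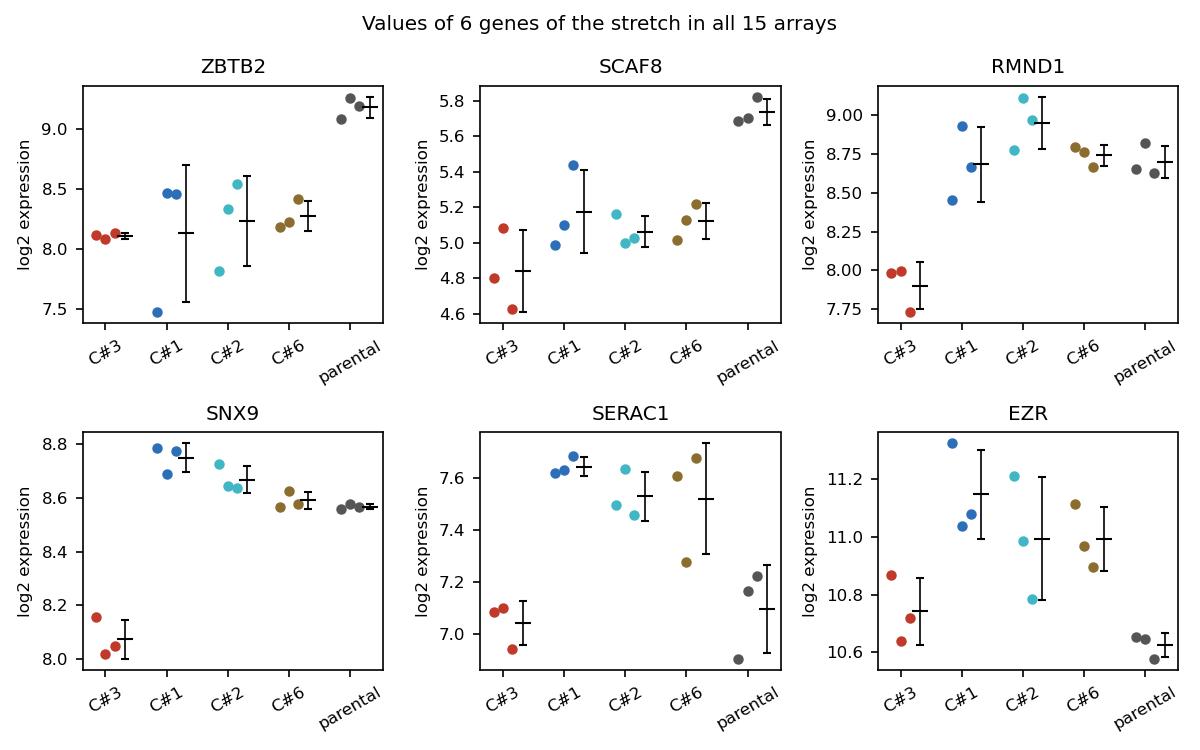
Log2 expression of 6 members in each of the 15 arrays. Points are arrays and the bars beside them show the mean ± SD of each group (n = 3). ZBTB2 and SCAF8 lie below the parental line in all clones, RMND1 and SNX9 in C#3, and SERAC1 and EZR lie above it in C#1, C#2 and C#6. Axes differ between panels and do not start at 0.

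Of the 4 mitochondrial genes, RMND1, MTHFD1L and MTRF1L were low in C#3, with no call in the other clones. RMND1 read 7.98, 7.99 and 7.73 in C#3, 8.45, 8.93 and 8.67 in C#1, 8.77, 9.11 and 8.97 in C#2 and 8.79, 8.76 and 8.67 in C#6, against 8.65, 8.82 and 8.62 in the parental line. The arrays of C#3 lay below the other 12. The difference was −0.80 in C#3, or −0.89 against the mean of the other 3 clones, while the changes of −0.01 in C#1, 0.25 in C#2 and 0.04 in C#6 (SE 0.13 each) did not pass (lowest adjusted p = 0.194, limma).

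MTHFD1L read 6.58, 6.50 and 6.53 in C#3, 6.96, 7.00 and 7.02 in C#1, 7.18, 6.96 and 7.11 in C#2 and 6.97, 6.90 and 7.16 in C#6, against 7.23, 7.02 and 7.04 in the parental line. The gap between C#3 and the other 12 arrays exceeded the spread within any group. The difference was −0.56 in C#3, and those of the other 3 clones, −0.10, −0.01 and −0.09, did not pass the test.

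MTRF1L, a release factor that ends protein synthesis in mitochondria, read 7.30, 7.57 and 7.30 in C#3, 7.69, 7.92 and 7.97 in C#1, 7.63, 7.94 and 8.06 in C#2 and 7.83, 8.04 and 8.03 in C#6, against 8.01, 7.86 and 7.91 in the parental line. Again C#3 lay below all other arrays. The gene has 5 probe sets here. The brightest differed by −0.54 in C#3 and 3 others by −0.71, −0.63 and −0.37, while the dimmest differed by 0.13.

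SERAC1 differed from these 3 genes. It read 7.09, 7.10 and 6.95 in C#3, 7.62, 7.63 and 7.68 in C#1, 7.50, 7.64 and 7.46 in C#2 and 7.61, 7.28 and 7.68 in C#6, against 6.91, 7.17 and 7.22 in the parental line. The arrays of C#1, C#2 and C#6 lay above all parental arrays, whereas those of C#3 lay among them. SERAC1 rose by 0.54 ± 0.12 (log2, SE) in C#1 (adjusted p = 0.00396, limma), by 0.43 in C#2 (adjusted p = 0.017) and by 0.42 in C#6 (adjusted p = 0.0148), and the difference in C#3 was −0.05. The calls in C#2 and C#6 ended without parental replicate 1, that in C#2 also without C#2 replicate 2, and that in C#6 also without C#6 replicate 1 or 3 (highest adjusted p = 0.0913 in C#2 and 0.085 in C#6). The promoter window of SERAC1 shares 187 bases with that of GTF2H5, which starts 88 bases away on the other strand and was not analysed here.

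Among the genes of the cell cortex and of membrane traffic, SNX9, a sorting nexin of endocytosis, had the tightest parental values, at 8.56, 8.57 and 8.57. It read 8.16, 8.02 and 8.05 in C#3, 8.79, 8.69 and 8.77 in C#1, 8.72, 8.64 and 8.63 in C#2 and 8.57, 8.63 and 8.58 in C#6. C#3 lay below every other array. The difference was −0.49 in C#3, and the changes in C#1 (0.18 ± 0.08 SE), C#2 (0.10) and C#6 (0.02) did not pass (lowest adjusted p = 0.159, limma).

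SYNJ2, an inositol phosphatase that acts with endocytic proteins, read 7.53, 7.12 and 7.35 in C#3, 7.52, 7.70 and 7.67 in C#1, 7.70, 7.82 and 7.85 in C#2 and 7.39, 7.46 and 7.65 in C#6, against 7.86, 7.85 and 7.90 in the parental line. It fell in C#6 (−0.37 ± 0.11 SE, adjusted p = 0.0236, limma), and the values of −0.24 in C#1 and −0.08 in C#2 did not pass. The difference in C#3 was −0.53. The arrays of C#3 and C#6 overlapped. The call in C#6 ended without any 1 parental array, without C#6 replicate 1 or 2, or with repeated quantile normalization (highest adjusted p = 0.0884, limma).

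RSPH3, a radial spoke protein of cilia, read 5.51, 5.54 and 5.28 in C#3, 6.24, 5.96 and 5.87 in C#1, 6.03, 5.84 and 5.85 in C#2 and 5.90, 6.02 and 6.23 in C#6, against 5.83, 5.93 and 5.71 in the parental line. C#3 was lowest throughout, with a difference of −0.38. TMEM181, a membrane protein, read 7.63, 7.50 and 7.34 in C#3, 8.34, 8.21 and 8.27 in C#1, 8.29, 8.06 and 8.24 in C#2 and 8.36, 8.04 and 8.18 in C#6, against 8.03, 8.12 and 7.99 in the parental line. Its difference was −0.55 in C#3, or −0.73 against the mean of the other clones. Neither gene passed the test in C#1, C#2 or C#6.

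AKAP12, a scaffold that anchors protein kinase A, was low in all clones. It read 4.25, 4.30 and 4.24 in C#3, 4.33, 4.48 and 4.44 in C#1, 4.30, 4.23 and 4.01 in C#2 and 4.35, 4.45 and 4.43 in C#6, against 4.75, 4.90 and 4.68 in the parental line. All 12 clone arrays lay below the parental ones. Its log2 change was −0.36 ± 0.10 (SE) in C#1 (adjusted p = 0.0176, limma), −0.60 in C#2 (adjusted p = 0.000597) and −0.37 in C#6 (adjusted p = 0.0119), and the difference in C#3 was −0.52. Without parental replicate 2 the calls in C#1 and C#6 ended, and without C#1 replicate 1 that in C#1 did (highest adjusted p = 0.0909 in C#1 and 0.0686 in C#6).

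EZR encodes ezrin, which links the plasma membrane to the actin cortex. It read 10.87, 10.64 and 10.72 in C#3, 11.32, 11.04 and 11.08 in C#1, 11.21, 10.99 and 10.78 in C#2 and 11.11, 10.97 and 10.90 in C#6, against 10.65, 10.65 and 10.58 in the parental line. C#3 overlapped the parental range and the other clones lay above it. EZR rose 1.44-fold in C#1 (log2 change 0.52 ± 0.12 SE, adjusted p = 0.00588, limma), 1.29-fold in C#2 (0.37, adjusted p = 0.0417) and 1.29-fold in C#6 (0.37, adjusted p = 0.0346). The calls in C#2 and C#6 ended without any 1 parental array. That in C#2 also ended without C#2 replicate 1 or 2 or C#6 replicate 2, and that in C#6 without C#6 replicate 1 or 2 (highest adjusted p = 0.173 in C#2 and 0.114 in C#6). The call in C#2 was lost as well when arrays were centred on their medians and in a fit to the 6 arrays alone.

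CCDC170, the neighbour of the oestrogen receptor gene ESR1, read 8.06, 7.57 and 7.87 in C#3, 8.23, 7.93 and 7.95 in C#1, 8.10, 8.17 and 7.87 in C#2 and 8.17, 8.18 and 7.95 in C#6, against 7.51, 7.62 and 7.49 in the parental line. It rose 1.41-fold in C#1 (0.50 ± 0.13 SE, adjusted p = 0.0146, limma), 1.42-fold in C#2 (0.50, adjusted p = 0.0132) and 1.47-fold in C#6 (0.56, adjusted p = 0.00511). The difference in C#3 was 0.29, with an SD of 0.25 over its 3 arrays, the highest difference of any member in that clone. Leaving out parental replicate 3 ended the calls in C#1 and C#2, as did leaving out C#1 replicate 1 for C#1 and C#2 replicate 2 for C#2 (highest adjusted p = 0.0685 in C#1 and 0.0574 in C#2).

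Of the dimmer members, RGS17, which shortens signalling through G proteins, read 3.90, 4.29 and 4.13 in C#3, 4.42, 4.10 and 4.12 in C#1, 4.42, 4.41 and 4.23 in C#2 and 4.35, 4.39 and 4.33 in C#6, against 4.02, 3.75 and 4.08 in the parental line. It rose in C#2 (0.41 ± 0.12 SE, adjusted p = 0.0342, limma) and in C#6 (0.41, adjusted p = 0.0267), both calls ending without parental replicate 2. The call in C#2 also ended without parental replicate 1 or C#2 replicate 1 or 2, and that in C#6 without any 1 of its own 3 arrays (highest adjusted p = 0.161 in C#2 and 0.137 in C#6). IYD (iodotyrosine deiodinase), TIAM2 (an exchange factor for Rac) and TAGAP (a GTPase-activating protein of T cells) differed by −0.16, −0.15 and 0.04 in C#3, with no call in any clone. The 6 tested members with a mean below 5 on the log2 scale had a median difference of −0.06 in C#3, and the 15 at or above 5 had −0.54.

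SYTL3, an effector of the vesicle GTPase Rab27, was the only member called in a comparison among C#1, C#2 and C#6. It read 4.99, 5.08 and 5.05 in C#6, 4.45, 4.72 and 4.60 in C#2, 4.96, 4.73 and 4.74 in C#1 and 5.03, 4.59 and 4.88 in C#3, against 4.88, 4.74 and 4.80 in the parental line. All arrays of C#6 lay above those of C#2, and SYTL3 was 0.45 ± 0.12 (log2, SE) higher in C#6 than in C#2 (adjusted p = 0.0181, limma). The call ended without C#2 replicate 1, C#6 replicate 2 or C#6 replicate 3. Over all 23 other settings the change lay between 0.39 and 0.52, with an adjusted p of at most 0.0767 (limma). In C#6 over C#2, 0 of the 21 members fell and 1 rose, where 5.69% of all genes fell and 5.47% rose, and 4 of the 21 members had an unadjusted p under 0.05, as did 2912 of the 12147 genes.

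The changes among C#1, C#2 and C#6 are differences of means that hold neither the arrays of C#3 nor those of the parental line, although all 15 arrays enter the estimate of the spread. In C#6 over C#1, 0 members fell and 0 rose in limma's test, where 7.07% of all genes fell and 5.61% rose, and 2 of the 21 members had an unadjusted p under 0.05, as did 3055 of the 12147 genes. Without C#3 replicate 2, 1 member was called. In C#2 over C#1, 0 members fell and 0 rose, where 0% of all genes fell and 0% rose, and 2 members and 807 genes had an unadjusted p under 0.05. No other tool was run on these comparisons. A change that misses the threshold is not shown to be absent. Member changes lay between −0.33 and 0.25 in C#6 over C#1 and between −0.31 and 0.27 in C#2 over C#1.

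Set against the other 3 clones, 19 of the 21 members had a lower mean in C#3, the exceptions being SYTL3 (0.02) and TAGAP (0.01). The 3 arrays of C#3 lay below all 12 other arrays for 8 members, MTHFD1L, RMND1, MTRF1L, ARID1B, SNX9, TMEM181, RSPH3 and WTAP, where 2.84% of all genes showed this order. Since the members were listed for low values in C#3, the count describes them and tests nothing.

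Within the bounds of the stretch lay 8 further genes with a symbol that were not listed, 6 of them tested, and 3 of the 6 were called lower in C#3. TMEM242, a small membrane protein gene, read 5.33, 5.12 and 4.87 in C#3 against 5.63, 5.77 and 5.93 in the parental line (−0.67 ± 0.14 SE, adjusted p = 0.00325, limma), below all 12 other arrays. It did not pass in C#1, C#2 or C#6. ESR1 was lower in C#3 by a difference of −0.43 (adjusted p = 0.0443, limma), a call that ended without any 1 array of C#3 or of the parental line, without C#1 replicate 3, without C#6 replicate 3 or with repeated quantile normalization. It also fell in C#1 (−0.84, adjusted p = 0.000668, limma), C#2 (−0.61, adjusted p = 0.00613) and C#6 (−0.55, adjusted p = 0.00896).

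Also called lower was the probe set of the microRNA gene MIR3918, which reads RNA from that locus and not the mature microRNA alone. Its mature product, from RefSeq (GRCh38.p14, chr6:158764715-158764735, minus strand), is printed with its seed, bases 2 to 8, in capitals.
hsa-miR-3918: aCAGGGCCgcagauggagacu
The probe set differed by −0.50 in C#3 (adjusted p = 0.022, limma), −0.54 in C#1 (adjusted p = 0.0149) and −0.66 in C#2 (adjusted p = 0.00411), and by −0.40 in C#6, which did not pass (adjusted p = 0.0543). Without parental replicate 2 or 3 the calls in C#3 and C#1 ended, that in C#3 also without C#3 replicate 1 or 3 and that in C#1 also without C#1 replicate 3. FBXO5, MIR1202 and SYNJ2-IT1 differed by −0.47, −0.22 and −0.35 in C#3 without a call, so all 6 unlisted genes had a mean below the parental one. This was not particular to C#3. All 6 also lay below the parental mean in C#2 and C#6, and in C#1 only FBXO5 lay above it (0.12). The median of the 6 was −0.45 in C#3, −0.25 in C#1, −0.20 in C#2 and −0.15 in C#6.

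The named edges of the stretch did not mark the end of the low values in C#3. Just inside lay IYD (−0.16) and MTHFD1L (−0.56) at one end and TAGAP (0.04) and WTAP (−0.58) at the other. Just outside, before the stretch, the 5 nearest tested genes were LRP11 (−0.45), RAET1E (0.19), ULBP2 (−0.28), ULBP1 (−0.24) and ULBP3 (−0.59), of which the ULBP and RAET1 genes encode ligands of the natural killer cell receptor NKG2D. After it came ACAT2 (0.05), MRPL18 (−0.53), MAS1 (0.02), IGF2R (0.16) and CHP1P2 (−0.36).

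MRPL18, a protein of the mitochondrial ribosome, read 6.80, 6.69 and 7.02 in C#3 against 7.33, 7.37 and 7.41 in the parental line, and was below all 12 other arrays (adjusted p = 0.00276, limma). IGF2R, the receptor that carries lysosomal enzymes, was higher in the other clones. It rose by 0.64 ± 0.10 (log2, SE) in C#1 (adjusted p = 0.000478, limma), by 0.77 in C#2 and by 0.62 in C#6, and its difference of 0.16 in C#3 did not pass (adjusted p = 0.307). LRP11 was called lower in C#3 (adjusted p = 0.00942, limma), except without parental replicate 3. ULBP3 was called lower in C#3 (adjusted p = 0.0174), except without parental replicate 3 or C#3 replicate 1, and fell in C#6 (−0.72, adjusted p = 0.00394).

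**Figure D3:**
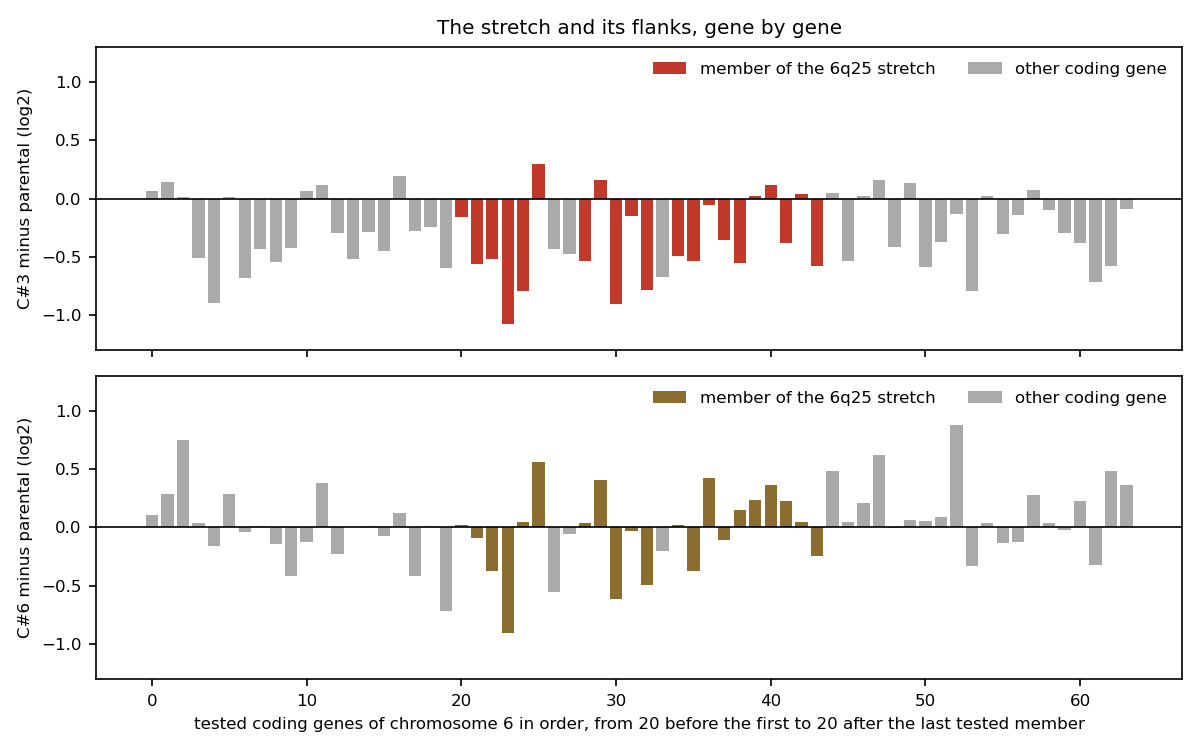
Difference of group means against the parental line (log2) for the tested coding genes of chromosome 6 in gene order, from 20 before the first to 20 after the last tested member, for C#3 (top) and C#6 (bottom). In C#3 the bars of listed genes and of both flanks lie mostly below 0, and in C#6 they lie on both sides of it.

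Counted over 20 tested coding genes on each side, 9 of 20 before the stretch and 8 of 20 after it were called lower in C#3, and 0 higher on either side. Their median differences were −0.29 and −0.22. Without parental replicate 3 the first count was 6, and without parental replicate 1 the second was 5. In C#1, C#2 and C#6 the genes before the stretch gave 0, 0 and 1 fallen and 2, 2 and 2 risen, and those after it 0, 0 and 0 fallen and 3, 3 and 4 risen. On the short arm of the chromosome, 31 of 304 coding genes (10.2%) were called lower in C#3, with a median difference of 0.00. On the long arm ahead of the first flank, 20 of 149 (13.4%) were, with a median of −0.02. These 2 shares lie near the 11.0% of all genes. The second set includes genes of the window OLIG3 to SASH1, described below, in which 10 of 20 genes were called lower.

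Along the whole chromosome, 519 tested coding genes were divided in gene order into 26 windows of 20, the last of 19, a division chosen after the values were known. The 2 windows that held the members had a median difference of −0.43 and −0.43 in C#3, with 11 of 20 genes called lower in each. They held 6 and 15 members, which the same contrast chose, so their values are a description and test nothing. Genes of both flanks counted above fall in these windows too. The window before them, OLIG3 to SASH1, had −0.28 with 10 called lower, and the window after them, IGF2R to PDCD2 at the end of the order, had −0.29 with 8 called lower, and neither held a member. In the other 22 windows the median in C#3 lay between −0.20 and 0.09. In all 26 windows it lay between −0.18 and 0.22 in C#1, between −0.15 and 0.14 in C#2 and between −0.14 and 0.24 in C#6.

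**Figure D4:**
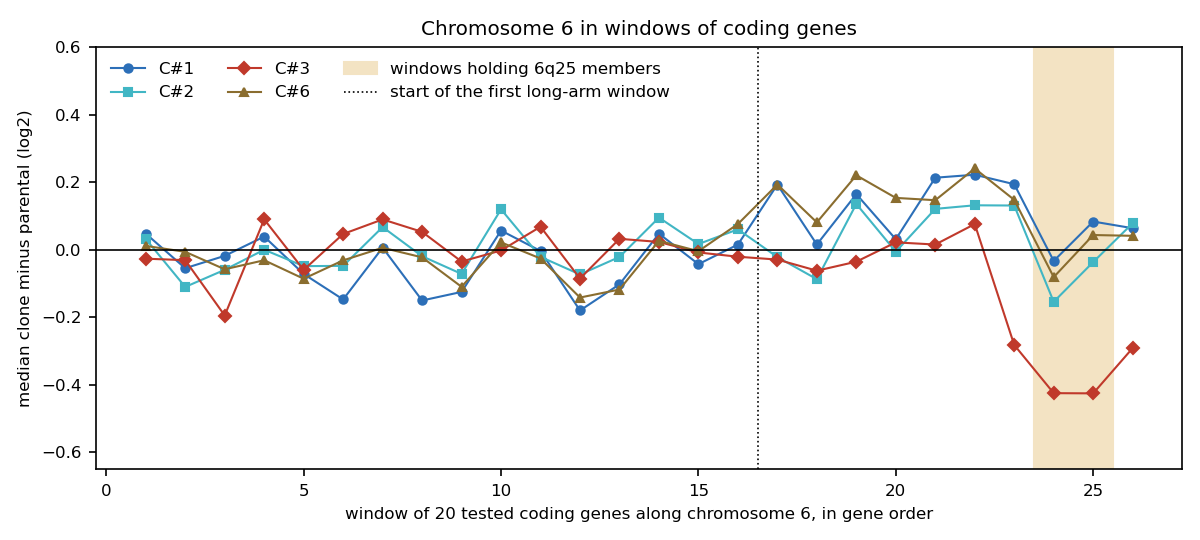
Median difference against the parental line (log2) in each of the 26 windows of tested coding genes along chromosome 6, with 1 line per clone. The shading marks the 2 windows that hold the listed genes. The dotted line marks the start of the first window whose first gene lies on the long arm, and the window before it spans both arms. The last 4 windows of C#3 lie between −0.43 and −0.28, below all other windows of that clone.

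Partners of the members encoded elsewhere were counted from lists drawn up by role, with the members left out. For every list below, the share of all genes that fell was 11.2% in C#1, 11.5% in C#2, 11.0% in C#3 and 14.7% in C#6. The share that rose was 6.03%, 5.47%, 6.22% and 7.73% in the same order. The lists are short, and a count near these shares is not read as a result about the partners. Of 19 other SWI/SNF subunits, 6 were tested, of which 1 fell in C#1, 3 in C#2, 1 in C#3 and 2 in C#6, with 0 higher. Their median change was −0.21, −0.31, −0.06 and −0.27 in the same clones. ARID1A, the alternative to ARID1B in these complexes, fell in C#3 (−0.49 ± 0.10 SE, adjusted p = 0.00289, limma), C#2 (−0.42, adjusted p = 0.00765) and C#6 (−0.65, adjusted p = 0.000205), and changed by −0.29 in C#1 without passing (adjusted p = 0.0583). BCL7B, another subunit, fell in C#1 (−0.71, adjusted p = 0.000441, limma) and C#2 (−0.68, adjusted p = 0.000637) and differed by 0.06 in C#3. Leaving out any 1 array ended none of these calls of ARID1A and BCL7B. The remaining calls were those of BCL7A in C#6 (−0.45) and in C#2 (−0.34), the second of which ended without any of 7 single arrays (any of the parental line or of C#2, or C#6 replicate 2) and with repeated quantile normalization.

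Of the 6 tested partners of WTAP in the m6A writer, 0 fell in C#1 and C#2 and 1 in C#3 and C#6. It was VIRMA, the scaffold of the complex, with −0.45 ± 0.10 (SE) in C#3 (adjusted p = 0.00637, limma) and −0.39 in C#6 (adjusted p = 0.0115, lost without parental replicate 2). The list's median was 0.02 in C#1, −0.03 in C#2, −0.18 in C#3 and −0.08 in C#6. Of 10 other genes of mitochondrial gene expression, 0 fell in C#1, 2 in C#2, 1 in C#3 and 2 in C#6, with medians of −0.02, −0.06, −0.01 and −0.08 in that order. The calls were those of POLRMT, the mitochondrial RNA polymerase, in C#2 (−0.46), C#3 (−0.46) and C#6 (−0.43), and of MTERF2, a factor of mitochondrial transcription, in C#2 (−0.56) and C#6 (−0.55). All 5 calls ended without parental replicate 1 and with repeated quantile normalization, those of POLRMT also without parental replicate 3 and those of MTERF2 also without parental replicate 2, so these counts rest on single arrays.

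Of 5 other genes of folate metabolism, 2 fell in C#1, 1 in C#2 and 0 in C#3 and C#6, and 1 rose in C#3. Without parental replicate 1 both calls in C#1 ended (FPGS, −0.48, and SHMT2, −0.61). That of SHMT2 also ended without parental replicate 2 or 3, without C#1 replicate 2 or 3 and with repeated quantile normalization. SHMT1, the cytosolic serine hydroxymethyltransferase, rose in C#3 by 0.72 ± 0.14 (log2, SE, adjusted p = 0.0024, limma), beside the low MTHFD1L. The medians were −0.33 in C#1, −0.25 in C#2, 0.00 in C#3 and 0.19 in C#6. Of 6 genes linked to ezrin, 1 rose in C#1 and in C#2 (SLK, a kinase that phosphorylates ezrin) and 1 fell in C#3 (CD44, a hyaluronan receptor, −0.89 ± 0.24 SE, adjusted p = 0.0178, limma). The medians were 0.19 in C#1, 0.17 in C#2, −0.19 in C#3 and −0.17 in C#6. The CD44 call ended without parental replicate 1 or 3 or C#3 replicate 2 or 3, the SLK call in C#1 without C#1 replicate 3, and the SLK call in C#2 without any of 7 single arrays (any parental array, C#1 replicate 2, C#2 replicate 2 or 3, or C#3 replicate 1), with median centring or with the replicate number as a block.

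Of 2 tested subunits of TFIIH, the complex to which GTF2H5 belongs, 1 fell in C#6 (CCNH, −0.44) and 0 in the other clones. That call ended without any 1 array of the parental line or of C#6 and with repeated quantile normalization. Of 15 genes that handle superoxide and peroxide, as SOD2 does, 0 fell in C#1, 1 in C#2, 1 in C#3 and 2 in C#6, while 3, 3, 2 and 3 rose. TXN, thioredoxin, fell in C#6 (−0.40), and its call in C#3 (−0.27) was lost in 13 of 23 other settings, the replicate block among them. PRDX6, a peroxiredoxin, fell in C#2 (−0.37) and C#6 (−0.41), and both calls held in all 23 other settings. PRDX1, a peroxiredoxin, was called higher in all 4 clones (0.28 in C#3, 0.33 in C#1, 0.30 in C#2 and 0.29 in C#6), calls that each ended without any 1 parental array. The other genes called higher are named after their values were seen. The call of GPX4 in C#2 was lost in 14 settings, that of GSR in C#1 in 2 and that of TXNRD2 in C#6 in 4. GPX2, a glutathione peroxidase of epithelia, rose by 1.13 ± 0.24 (log2, SE) in C#3 (adjusted p = 0.00332, limma) and by 1.53 in C#6 (adjusted p = 0.000215). It rose by 0.90 in C#1 and by 0.85 in C#2, calls that ended without parental replicate 3, and without C#1 replicate 2 or C#2 replicate 2 for the clone in question.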

How the data were processed

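Total RNA of 15 samples was measured on Affymetrix arrays. The authors deposited log2 expression values of 53617 probe sets. The submitters' processing notes name RMA, the Transcriptome Analysis Console and, as version 1.4.1, Affymetrix Expression Console, without their roles. For the array's genome build, not given in the sources used here, none was assumed. The RMA method brings array distributions closer together, which can remove shifts shared by most genes and compress changes near background. In the deposited values the 75th percentile still lay lower in the clones (5.80 to 5.89) than in the parental line (5.94 to 5.96).

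Symbols came from the platform annotation: 16098 probe sets (30.0%) had 1, 0 several and 37519 none here. A probe set was kept if it exceeded its array's 40th percentile on 3 or more arrays, and the brightest on average stood for its symbol, leaving 12147 genes. RefSeq (GRCh38.p14) gave gene order, promoters and the microRNA. With limma 3.58.1 in R 4.3.3, lmFit took all 15 arrays with a mean for each of the 5 groups, which left 10 residual degrees of freedom, followed by eBayes, and genes were called at a Benjamini-Hochberg adjusted p under 0.05 over all genes. Tables and figures used Python 3.11.15, pandas 2.3.3 and matplotlib 3.10.9. The fit was tested on simulated data. The number of arrays limits the precision.

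The members, lists, tests and named genes (every member, the 5 nearest tested genes on each side, unlisted genes within the stretch, and up to 4 called genes per list) were chosen with earlier results of these data known. Alternatives included other filters, repeated quantile normalization, median centring, array weights, a replicate block, single arrays left out and the 6 compared arrays alone. Of 30 pairs of arrays with the same replicate number, 10 correlated above 0.1 in their deviations from the group means (median 0.05, highest 0.46). For pairs with unlike numbers the median was −0.02. Not every same-numbered pair correlated, which does not show that no effect was shared. The main fit did not take the numbers as pairs, and the replicate block was run as an alternative.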

Additional observations from a re-analysis of the deposited data

Results flagged for a closer look

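SYTL3 changed by 0.45 on the log2 scale in C#6 over C#2, a difference between 2 clones that limma's test of that difference called (adjusted p = 0.0181). Against the parental line the gene changed by 0.23 in C#6 and by −0.22 in C#2, and neither change passed the test.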

How the results depend on the processing

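Without the filter on dim probe sets, over 27 members, the median change was 0.0254 in C#1, 0.0491 in C#2 and −0.16 in C#3. With repeated quantile normalization the median was 0.0213 in C#1 and 0.0692 in C#2. In C#6 over C#1, where the count was 0, it was 1 with repeated quantile normalization, 1 with the stricter filter and 2 with array weights. With 1 array left out, members called ranged from 4 to 7 in C#1, 5 to 9 in C#2, 11 to 13 in C#3, 5 to 9 in C#6, 0 to 1 in C#6 over C#1, 0 to 1 in C#6 over C#2 and 0 to 0 in C#2 over C#1, and medians from −0.0203 to 0.0419 in C#1, −0.0250 to 0.0817 in C#2, −0.49 to −0.44 in C#3 and 0.01 to 0.03 in C#6. The causes were not tested. With the replicate block, members called were 7 in C#1, 9 in C#2, 13 in C#3 and 9 in C#6, with a median of −0.49 in C#3; it moved no count of members by over 1.5 times, and of the genes outside the stretch it ended the calls of SLK in C#2 and TXN in C#3. Same-numbered arrays were closest for 9 of 15 arrays. The medians of C#1 and C#2, near 0, changed sign without the filter, with repeated quantile normalization and without some single arrays, and no called change of a member reversed. Dim probe sets and 3 arrays per group limit what small changes can be seen, and 16 of the 37 listed genes were not tested.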
